A study of Homo sapiens with 18 samples.

Results

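The genes described here make cholesterol, sense sterols, or carry cholesterol into, through and out of the cell. They are 29 named genes, matched by symbol to the Ensembl identifiers of the count tables, out of 63677 identifiers in all. All 29 were found, and all 29 passed the filter on low counts, as did 15179 genes in total. They were grouped by role: 7 genes of the mevalonate arm, 4 of the steps through squalene and lanosterol, 8 of the steps after lanosterol, 5 of the sterol-sensing SREBP system, and 5 of transport, uptake and export.

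Polyadenylated RNA was sequenced from HAP1, a human line with a near-haploid genome that descends from KBM-7 cells of chronic myeloid leukaemia. The 6 groups of 3 libraries were a line labelled as an ATG7 knockout (ATG7KO), a line labelled as an RB1CC1 knockout (RB1CC1KO) and the parental line (WT), each kept for 6 h in EBSS and in full medium. EBSS (Earle's balanced salt solution) holds salts and glucose and no amino acids or serum, while full medium was IMDM with 10% fetal calf serum and antibiotics. EBSS thus removed serum lipoproteins, all other components of serum and amino acids together, and their effects cannot be told apart. ATG7 is the enzyme that activates ubiquitin-like autophagy proteins, and RB1CC1 (FIP200) is a scaffold of the kinase complex that starts autophagy. Since each genotype is 1 line, an effect of the deleted gene and any other way in which the lines differ cannot be told apart. The labels describe the libraries of a group as independent biological replicates.

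The targeted genes and the depth set limits on what follows. ATG7 stood at 4.02 ± 0.44 CPM (TMM-scaled read counts brought to a common library total; mean ± SD, n = 3) in ATG7KO and at 15.6 ± 1.30 CPM in WT in full medium. After EBSS it stood at 10.4 ± 0.53 CPM in ATG7KO and 16.1 ± 1.68 CPM in WT, lower in ATG7KO (log2 fold change -0.62 ± 0.12, edgeR adjusted p = 0.000149) but by less than in full medium (-1.95 ± 0.12, adjusted p = 8.81e-15). Within ATG7KO its RNA was higher after EBSS than in full medium (1.38 ± 0.13, adjusted p = 5.37e-11), so the ATG7KO libraries of the 2 media differed in the targeted RNA itself. RB1CC1 RNA was higher, not lower, in the RB1CC1KO libraries, with 157 ± 12.7 CPM against 105 ± 10.3 CPM in WT in full medium. The log2 fold change was 0.58 ± 0.07 in full medium (edgeR adjusted p = 8.3e-08) and 0.25 ± 0.07 after EBSS (adjusted p = 0.00472). The rise of RB1CC1 RNA after EBSS was smaller than in WT (difference -0.33 ± 0.10, adjusted p = 0.0305). Whether the gene was disrupted could not be checked from RNA counts, so these libraries are called RB1CC1KO-labelled throughout. Reads in genes ranged from 11994110 to 19073798 in 16 libraries, with 4892072 in ATG7KO EBSS replicate 3 and 26005942 in RB1CC1KO-labelled EBSS replicate 2. Mitochondrial transcripts took 1.41 to 2.36% of reads after EBSS and 3.24 to 4.26% in full medium, and their part in the results below was not tested. The summed levels of cell-type markers differed between groups. Of 12 haematopoietic markers 5 passed the filter, with GATA2 and TAL1 averaging 55.4 and 22.0 CPM over all libraries and GATA1 and MPO at 0 in each. TAL1 averaged 1.40 CPM after EBSS and 9.92 CPM in full medium in ATG7KO, 14.7 and 51.5 CPM in the RB1CC1KO-labelled line, and 17.4 and 37.3 CPM in WT. GATA2 averaged 62.8 and 55.2, 59.9 and 45.3, and 54.7 and 54.5 CPM in the same order, so the haematopoietic markers did not move together. Their summed level was 70.8 to 73.0 CPM after EBSS and 77.2 to 79.1 CPM in full medium in ATG7KO, 85.0 to 95.2 CPM after EBSS and 115 to 125 CPM in full medium in the RB1CC1KO-labelled line, and 86.9 to 94.9 CPM after EBSS and 115 to 129.7 CPM in full medium in WT. Of 8 fibroblast and mesenchymal markers 6 passed, with DCN at 0 in each library. Their sum, most of it VIM, was 1343 to 1392 CPM after EBSS and 851 to 911 CPM in full medium in ATG7KO, 1124 to 1209.9 CPM after EBSS and 580.5 to 613 CPM in full medium in the RB1CC1KO-labelled line, and 1070.2 to 1088 CPM after EBSS and 629 to 656 CPM in full medium in WT. Of 6 epithelial markers 5 passed, with sums of 60.5 to 68.1 CPM after EBSS and 63.0 to 67.6 CPM in full medium in ATG7KO, 87.2 to 97.4 CPM after EBSS and 72.3 to 82.6 CPM in full medium in the RB1CC1KO-labelled line, and 117 to 123 CPM after EBSS and 103 to 113 CPM in full medium in WT. Of 4 liver markers 1 passed, ALB at 0.825 CPM, and TTR was at 0 in each library. The part of these markers in the results was not tested.

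Cholesterol is built from acetyl-CoA. The mevalonate arm makes farnesyl diphosphate, squalene synthase commits it to sterols, squalene is closed to lanosterol, and a chain of demethylations, reductions and shifts of double bonds turns lanosterol into cholesterol. The chain is controlled by SREBP-2 and SREBP-1, transcription factors made as membrane precursors in the endoplasmic reticulum. When sterols are scarce, SCAP escorts the precursors to the Golgi, where they are cut, and when sterols are plentiful, INSIG proteins hold SCAP back. Sterols that have been taken up leave the lysosome through NPC2 and NPC1. Oxidised sterols act through LXR receptors, whose known targets include ABCA1, which exports cholesterol, and MYLIP, a ubiquitin ligase for lipoprotein receptors.

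Promoter windows of 250 bases before to 50 bases after the gene start are shown for 5 members, because SREBF2 was the only member with a match to the sterol element searched, and INSIG1, HMGCS1, MSMO1 and NSDHL had lower RNA after EBSS in all 3 lines. The sequences are from RefSeq on GRCh38.p14, given 5′ to 3′ on the strand of the gene. The windows are chr22:41832855-41833154 (plus strand) for SREBF2, chr7:155297628-155297927 (plus strand) for INSIG1, chr5:43313363-43313662 (minus strand) for HMGCS1, chr4:165327419-165327718 (plus strand) for MSMO1 and chrX:152830813-152831112 (plus strand) for NSDHL. Capitals mark CCAAT or its complement ATTGG, the letters that the factor NF-Y binds, and the match to TCACNCCAC, a form of the sterol regulatory element.
SREBF2: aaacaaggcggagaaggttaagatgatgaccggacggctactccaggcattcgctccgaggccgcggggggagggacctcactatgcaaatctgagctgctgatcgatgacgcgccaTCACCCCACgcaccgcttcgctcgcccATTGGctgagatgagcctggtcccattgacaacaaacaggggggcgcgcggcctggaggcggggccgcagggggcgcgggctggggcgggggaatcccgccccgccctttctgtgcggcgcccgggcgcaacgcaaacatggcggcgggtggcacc
INSIG1: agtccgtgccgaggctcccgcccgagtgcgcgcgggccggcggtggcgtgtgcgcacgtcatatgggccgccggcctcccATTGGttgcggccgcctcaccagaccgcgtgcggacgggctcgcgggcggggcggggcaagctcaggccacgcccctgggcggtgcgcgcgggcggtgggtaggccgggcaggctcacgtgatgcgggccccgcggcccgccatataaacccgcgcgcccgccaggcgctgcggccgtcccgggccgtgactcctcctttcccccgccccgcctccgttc
HMGCS1: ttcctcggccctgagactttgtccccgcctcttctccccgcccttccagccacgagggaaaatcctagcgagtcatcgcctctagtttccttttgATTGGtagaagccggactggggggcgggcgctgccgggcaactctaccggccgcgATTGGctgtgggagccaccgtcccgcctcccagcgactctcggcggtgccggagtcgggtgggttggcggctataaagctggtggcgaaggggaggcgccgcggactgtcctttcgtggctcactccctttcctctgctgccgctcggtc
MSMO1: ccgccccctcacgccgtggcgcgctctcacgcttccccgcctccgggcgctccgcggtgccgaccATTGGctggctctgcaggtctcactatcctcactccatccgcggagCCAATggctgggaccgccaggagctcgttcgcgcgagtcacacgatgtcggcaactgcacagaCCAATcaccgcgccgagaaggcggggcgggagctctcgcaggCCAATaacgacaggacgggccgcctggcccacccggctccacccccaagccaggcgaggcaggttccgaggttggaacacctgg
NSDHL: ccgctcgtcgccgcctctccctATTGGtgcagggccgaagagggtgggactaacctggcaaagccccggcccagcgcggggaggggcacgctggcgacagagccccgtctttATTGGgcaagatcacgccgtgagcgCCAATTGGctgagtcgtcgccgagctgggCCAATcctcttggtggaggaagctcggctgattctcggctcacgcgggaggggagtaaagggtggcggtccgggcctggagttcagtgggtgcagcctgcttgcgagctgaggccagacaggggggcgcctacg
Windows were found for 26 of the 29 members, 33 windows in all, and searched on both strands. TCACNCCAC was present in 1 of the 33 windows, that of SREBF2, where TCACCCCAC begins at position -133 from the start, against 1.13% of all 35116 windows in the table. CCAAT was present in 20 of 33 windows (60.6%), against 34.6% of all windows. GGGCGG, the core of an SP1 site, was present in 30 of 33 (90.9%), against 45% of all windows. TGATGNAA, an amino acid response element, was found in 0 of 33, against 3.62% of all windows. In the NSDHL window 1 CCAAT overlaps 1 ATTGG, so that these are not separate matches, and no match says only that the letters are not in these windows. Counted by gene, with a match in any window, 18 of 26 members (69.2%) held CCAAT. All 6 genes with a window that were lower after EBSS in all 3 lines did, and 4 of the 7 that were higher in all 3 lines did. HMGCS1 and NPC2 each had a further window without CCAAT, and that of HMGCS1 is not shown above. The shares over all genes given above are per window, and no share per gene was computed to set beside the counts by gene. A link between CCAAT and the response to EBSS was not tested.

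Members differed widely in RNA level. In WT in full medium, on the scale of CPM per kilobase of exon, EBP stood highest at 52.9 ± 2.95, followed by LBR at 46.5 ± 2.03 and FDPS at 39.3 ± 2.47 (SD, n = 3). NSDHL at 35.9 ± 1.21, HMGCS1 at 34.2 ± 2.38 and FDFT1 at 32.6 ± 0.90 came next, and these neighbours differed by less than their summed SDs. The lowest were HSD17B7 at 1.93 ± 0.12, ABCA1 at 1.62 ± 0.13 and CYP51A1 at 0.86 ± 0.16 CPM per kilobase. CYP51A1, the lanosterol demethylase, had 1151 reads over all 18 libraries, so its changes were measured with the largest errors of any member. The annotation holds 3 CYP51A1 pseudogenes, which took 57 reads. Whether the copies added reads to the gene or took reads from it was not tested.

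The first question was how these genes respond to EBSS within each line. The set moved in both directions. Of 29 members 8 rose and 8 fell in ATG7KO, 10 rose and 10 fell in the RB1CC1KO-labelled line, and 9 rose and 13 fell in WT, by edgeR's quasi-likelihood test with p-values adjusted over all genes and a threshold of 0.05. EBSS moved most of the transcriptome, with 62.9%, 65.1% and 64.5% of tested genes called in ATG7KO, the RB1CC1KO-labelled line and WT. The calls took 32.3% of tested genes higher and 30.6% lower in ATG7KO, 31.9% and 33.3% in the RB1CC1KO-labelled line, and 32.4% and 32.1% in WT. The shares of members called were near those of all genes, with the 13 of 29 that fell in WT as the farthest from them. The median member log2 fold change was 0.00 in ATG7KO, 0.03 in the RB1CC1KO-labelled line and -0.08 in WT, beside -0.01, -0.03 and -0.02 over all genes. In bulk RNA, fewer cells of a kind and less RNA per cell cannot be told apart, and each change is relative to the other genes of the library.

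Members of one role did not all move the same way. Lower in all 3 lines were 8 members, namely HMGCS1, FDPS, FDFT1, SQLE, MSMO1, NSDHL, INSIG1 and MYLIP, where 23.3% of all genes were lower in all 3. Higher in all 3 lines were 7 members, namely LSS, HSD17B7, SREBF2, SREBF1, NPC1, NPC2 and ABCA1, where 25.2% of all genes were higher in all 3. Only MSMO1 and MYLIP changed at least 2-fold and were called, both lower in each line, beside 9.66%, 11.9% and 9.93% of all genes lower by this measure in ATG7KO, the RB1CC1KO-labelled line and WT. The shares of all genes higher by the same measure were 9.52%, 9.59% and 9.75%, and no member was among them. ACAT2, MVD, IDI1 and STARD4 were called in no line, and the other 10 members in 1 or 2. The reads of all 29 members summed to 2181 to 2268 CPM after EBSS and 2193 to 2197 CPM in full medium in ATG7KO. In the RB1CC1KO-labelled line the sums were 2548 to 2661 CPM after EBSS and 2466 to 2512 CPM in full medium, and in WT 2096 to 2188 CPM after EBSS and 2229 to 2294 CPM in full medium.

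**Figure D1:**
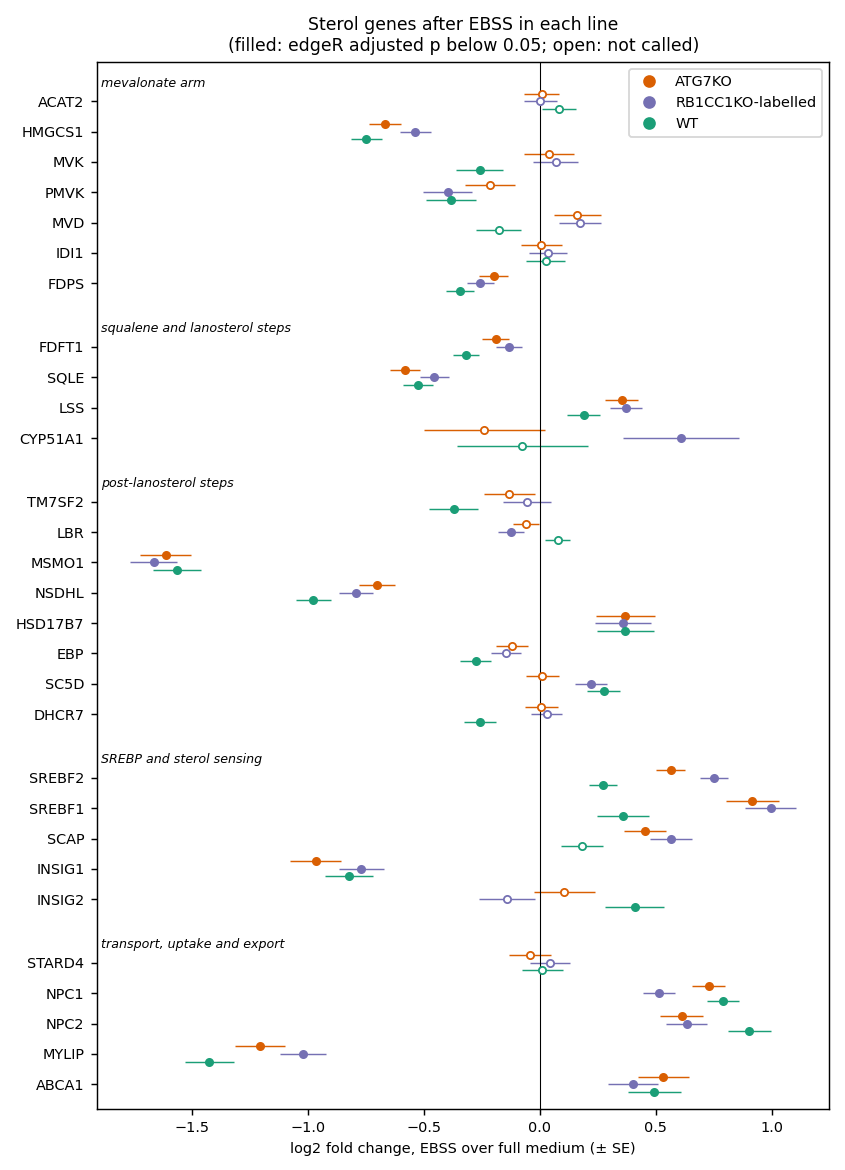
Log2 fold change of each member after EBSS over full medium (± standard error, horizontal axis) in ATG7KO, the RB1CC1KO-labelled line and WT, grouped by role; filled points were called by edgeR at an adjusted p below 0.05 and open points were not. MSMO1 lies between -1.66 and -1.56 in the 3 lines, while SREBF1 lies at 0.92, 0.99 and 0.36.

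In the mevalonate arm 2 of 7 genes fell and 0 rose in ATG7KO, 3 fell and 0 rose in the RB1CC1KO-labelled line, and 4 fell and 0 rose in WT. HMGCS1 (ENSG00000112972, chromosome 5), the synthase that makes HMG-CoA, had 109, 109 and 114 CPM after EBSS and 175, 183 and 169 CPM in full medium in ATG7KO. It had 153, 162 and 138 CPM after EBSS and 204, 239 and 215 CPM in full medium in the RB1CC1KO-labelled line. In WT the values were 95.4, 99.9 and 92.4 CPM after EBSS and 152, 174 and 157 CPM in full medium. All EBSS libraries of a line lay below all its full-medium libraries, with log2 fold changes of -0.67 ± 0.07 in ATG7KO, -0.54 ± 0.07 in the RB1CC1KO-labelled line and -0.75 ± 0.07 in WT (± SE; adjusted p = 1.77e-10, 8.05e-09 and 8.72e-12). Where 3 log2 fold changes are given together for a gene, they and their adjusted p-values belong to ATG7KO, the RB1CC1KO-labelled line and WT.

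FDPS (ENSG00000160752, chromosome 1), which makes farnesyl diphosphate, fell less. In ATG7KO it had 118, 125 and 123 CPM after EBSS and 136, 145 and 139 CPM in full medium. In the RB1CC1KO-labelled line it had 139, 139 and 130.4 CPM after EBSS and 159, 163 and 165 CPM in full medium, and in WT 123, 112 and 111 CPM after EBSS and 155, 146 and 137 CPM in full medium. The groups did not overlap in any line, and the log2 fold changes were -0.20 ± 0.06, -0.26 ± 0.06 and -0.35 ± 0.06 (adjusted p = 0.00533, 0.000309 and 6.93e-06). The annotation holds 8 FDPS pseudogenes, which took 52 reads beside 39467 of FDPS. Whether these copies added reads to FDPS or took reads from it was not tested.

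The kinase PMVK fell in the RB1CC1KO-labelled line (-0.40 ± 0.10, adjusted p = 0.00118) and in WT (-0.38 ± 0.11, adjusted p = 0.00229), and stood at -0.21 ± 0.11 in ATG7KO without passing (adjusted p = 0.0847). The kinase MVK fell in WT alone at this threshold (-0.26 ± 0.10, adjusted p = 0.0263). That call was lost without WT full-medium replicate 1 or WT EBSS replicate 1 (adjusted p = 0.0718 and 0.114), and exons of MVK overlap MMAB on the other strand. The thiolase ACAT2, the decarboxylase MVD and the isomerase IDI1 ranged from -0.18 to 0.17 over the 3 lines and passed in none.

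Of the 4 genes of squalene and lanosterol, 2 fell in each line. SQLE (ENSG00000104549, chromosome 8), the epoxidase that oxidises squalene, had 71.0, 67.6 and 65.1 CPM after EBSS and 102, 99.8 and 105 CPM in full medium in ATG7KO. It had 90.3, 83.5 and 87.4 CPM after EBSS and 120.5, 124 and 113 CPM in full medium in the RB1CC1KO-labelled line. In WT it had 69.5, 71.6 and 65.7 CPM after EBSS and 93.3, 106 and 98.2 CPM in full medium. Its log2 fold changes of -0.58 ± 0.07, -0.46 ± 0.06 and -0.53 ± 0.06 came with no overlap between media (adjusted p = 1.79e-09, 8.39e-08 and 8.78e-09).

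FDFT1 (ENSG00000079459, chromosome 8), squalene synthase, showed a smaller fall. It had 141, 150.2 and 141 CPM after EBSS and 172, 164 and 158 CPM in full medium in ATG7KO. The RB1CC1KO-labelled line had 186, 179 and 171 CPM after EBSS and 189.7, 199.6 and 199 CPM in full medium. WT had 136, 139 and 132 CPM after EBSS and 173, 164 and 171 CPM in full medium. The groups did not overlap, and the log2 fold changes were -0.19 ± 0.06, -0.13 ± 0.06 and -0.32 ± 0.06 (adjusted p = 0.00503, 0.0382 and 1.06e-05). In the RB1CC1KO-labelled line the call was lost without full-medium replicate 2 or 3 (adjusted p = 0.128 and 0.159), EBSS replicate 2 or 3 (0.0763 and 0.148), WT full-medium replicate 3 (0.0693) or ATG7KO EBSS replicate 1 (0.0647). That call was also lost with RLE scaling (0.061), without the filter (0.0743) and in the fit of only the groups compared (0.0603).

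The next enzyme, lanosterol synthase, moved the other way. LSS (ENSG00000160285, chromosome 21) had 154, 153 and 163 CPM after EBSS and 129.9, 113 and 124 CPM in full medium in ATG7KO. It had 184, 177 and 181 CPM after EBSS and 150.1, 134 and 136 CPM in full medium in the RB1CC1KO-labelled line. In WT it had 157, 137 and 169.9 CPM after EBSS and 147, 126 and 134 CPM in full medium. The media did not overlap in ATG7KO (0.35 ± 0.07, adjusted p = 6.71e-05) or in the RB1CC1KO-labelled line (0.37 ± 0.07, adjusted p = 2.05e-05), and overlapped in WT (0.19 ± 0.07, adjusted p = 0.0197). The WT call was lost with upper-quartile scaling (adjusted p = 0.665) and without WT full-medium replicate 2 or 3 (0.13 and 0.0994), WT EBSS replicate 1 or 3 (0.116 and 0.181), ATG7KO EBSS replicate 2 (0.0539) or RB1CC1KO-labelled EBSS replicate 1 (0.0515). CYP51A1 rose in the RB1CC1KO-labelled line (0.61 ± 0.25, adjusted p = 0.0355), with overlapping libraries of 3.94 to 5.98 CPM after EBSS and 1.91 to 4.19 CPM in full medium. It stood at 0.32 (adjusted p = 0.23) without full-medium replicate 2, and lost its call without EBSS replicate 1 or 3 (adjusted p = 0.115 and 0.12) and with upper-quartile scaling (0.112).

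Among the 8 genes after lanosterol, 2 fell and 1 rose in ATG7KO, 3 fell and 2 rose in the RB1CC1KO-labelled line, and 5 fell and 2 rose in WT. MSMO1 (ENSG00000052802, chromosome 4), the C4-methyl sterol oxidase, fell most of all members. It had 16.8, 17.3 and 12.1 CPM after EBSS and 47.2, 50.1 and 50.1 CPM in full medium in ATG7KO. It had 20.2, 17.4 and 16.1 CPM after EBSS and 54.8, 63.7 and 51.8 CPM in full medium in the RB1CC1KO-labelled line. WT had 18.7, 16.3 and 15.9 CPM after EBSS and 46.7, 56.5 and 46.4 CPM in full medium. The highest EBSS library of any line lay below the lowest full-medium library of any line, and the log2 fold changes were -1.61 ± 0.11, -1.66 ± 0.10 and -1.56 ± 0.10 (adjusted p = 7.97e-15, 3.02e-16 and 4.42e-15).

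NSDHL (ENSG00000147383, chromosome X), the dehydrogenase that acts on the same C4 methyl groups after MSMO1, fell as well. It had 39.2, 41.4 and 41.2 CPM after EBSS and 69.3, 65.7 and 62.5 CPM in full medium in ATG7KO. The RB1CC1KO-labelled line had 48.6, 41.4 and 38.0 CPM after EBSS and 77.4, 72.8 and 71.8 CPM in full medium. WT had 35.4, 36.1 and 37.8 CPM after EBSS and 69.1, 72.0 and 73.9 CPM in full medium. The media did not overlap, with log2 fold changes of -0.70 ± 0.08, -0.79 ± 0.07 and -0.98 ± 0.08 (adjusted p = 1.15e-09, 1.38e-11 and 1.84e-13).

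HSD17B7 (ENSG00000132196, chromosome 1), the keto-reductase that completes C4 demethylation, was higher after EBSS. It had 11.5, 12.6 and 12.9 CPM after EBSS and 8.85, 10.8 and 8.73 CPM in full medium in ATG7KO. The RB1CC1KO-labelled line had 13.5, 10.7 and 12.2 CPM after EBSS and 9.85, 8.44 and 9.89 CPM in full medium. WT had 12.3, 11.1 and 12.4 CPM after EBSS and 9.79, 9.23 and 8.66 CPM in full medium. The media did not overlap in any line (0.37 ± 0.13, 0.36 ± 0.12 and 0.37 ± 0.12; adjusted p = 0.0117, 0.00895 and 0.00953). These were low counts and the calls were fragile: with upper-quartile scaling the adjusted p was 0.153 in ATG7KO, 0.111 in the RB1CC1KO-labelled line and 0.123 in WT. The call was also lost in ATG7KO without full-medium replicate 1 or 3 or EBSS replicate 2 (adjusted p = 0.0514, 0.051 and 0.0923), in the RB1CC1KO-labelled line without full-medium replicate 2 or EBSS replicate 1 (0.0548 and 0.0623), and in WT without full-medium replicate 3 (0.053). The annotation holds 2 HSD17B7 pseudogenes with 231 reads, beside 3028 of the gene.

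The other enzymes after lanosterol moved by less than 0.40 on the log2 scale. SC5D, a desaturase, rose in the RB1CC1KO-labelled line (0.22 ± 0.07, adjusted p = 0.00564) and in WT (0.27 ± 0.07, adjusted p = 0.000978), and stood at 0.01 ± 0.07 in ATG7KO. Both calls were lost with upper-quartile scaling (adjusted p = 0.299 and 0.11). DHCR7, a sterol reductase of the last steps, fell in WT (-0.26 ± 0.07, adjusted p = 0.00144) and stood at 0.00 ± 0.07 in ATG7KO and 0.03 ± 0.07 in the RB1CC1KO-labelled line. The isomerase EBP fell in WT (-0.28 ± 0.07, adjusted p = 0.000484) and stood at -0.12 ± 0.07 in ATG7KO and -0.15 ± 0.07 in the RB1CC1KO-labelled line (adjusted p = 0.121 and 0.0508). The C14 sterol reductase TM7SF2 fell in WT (-0.37 ± 0.11, adjusted p = 0.00274), with overlapping libraries, and its exons overlap those of VPS51 on the same strand. LBR, the other C14 reductase and an inner nuclear membrane protein, fell by 0.12 ± 0.05 in the RB1CC1KO-labelled line (adjusted p = 0.048), a call that was lost without any 1 of 14 libraries (adjusted p = 0.0515 to 0.217). These were all but WT full-medium replicate 1, WT EBSS replicate 3, RB1CC1KO-labelled full-medium replicate 1 and RB1CC1KO-labelled EBSS replicate 2. The LBR call was also lost with RLE scaling (adjusted p = 0.0806), DESeq2 (0.0564), no filter (0.0891) and the fit of only the groups compared (0.0714).

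**Figure D2:**
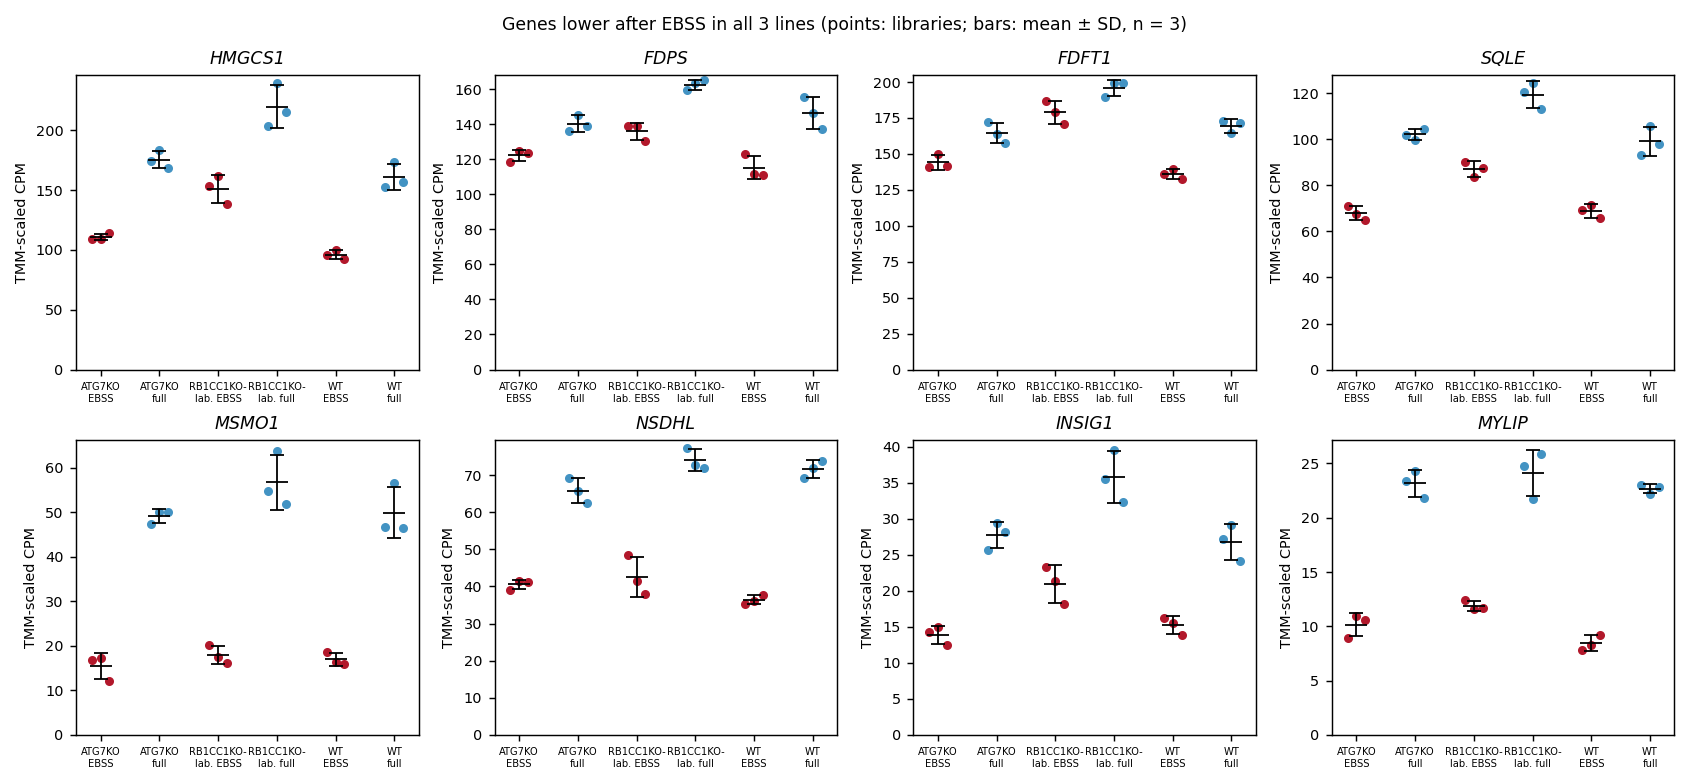
TMM-scaled CPM of the 8 members that were lower after EBSS in all 3 lines; each point is 1 library, bars are mean ± SD over 3 libraries, red is EBSS and blue is full medium, and axes start at 0. MSMO1 stands at 12.1 to 20.2 CPM in all EBSS libraries and at 46.4 to 63.7 CPM in all full-medium libraries.

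In the SREBP system 3 of 5 genes rose and 1 fell in each line. SREBF2, SREBF1 and SCAP rose in ATG7KO and the RB1CC1KO-labelled line, SREBF2, SREBF1 and INSIG2 rose in WT, and INSIG1 fell in all 3. SREBF2 (ENSG00000198911, chromosome 22), which encodes SREBP-2 and is the member with the sterol element shown above, had 307, 324 and 330.4 CPM after EBSS and 215, 212 and 222 CPM in full medium in ATG7KO. It had 411, 385 and 429.6 CPM after EBSS and 253, 232 and 243 CPM in full medium in the RB1CC1KO-labelled line. WT had 253, 252 and 289 CPM after EBSS and 230.1, 214 and 214 CPM in full medium. The media did not overlap in any line, and the log2 fold changes were 0.56 ± 0.06, 0.75 ± 0.06 and 0.27 ± 0.06 (adjusted p = 6.94e-10, 3.67e-13 and 0.000219). With upper-quartile scaling the WT value was 0.12 and was not called (adjusted p = 0.0865).

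SREBF1 (ENSG00000072310, chromosome 17), which encodes SREBP-1, had 87.8, 92.0 and 105 CPM after EBSS and 45.6, 48.6 and 55.2 CPM in full medium in ATG7KO. It had 119, 95.1 and 134 CPM after EBSS and 60.0, 55.2 and 58.6 CPM in full medium in the RB1CC1KO-labelled line. WT had 72.8, 66.8 and 85.8 CPM after EBSS and 64.2, 54.3 and 57.9 CPM in full medium. No media overlapped, and the log2 fold changes were 0.92 ± 0.11, 0.99 ± 0.11 and 0.36 ± 0.11 (adjusted p = 5.23e-07, 7.47e-08 and 0.00867). The WT call was lost without WT EBSS replicate 3 (adjusted p = 0.055) and with upper-quartile scaling (adjusted p = 0.136). Whole-gene counts do not separate the SREBP-1a and SREBP-1c transcripts, and exons of SREBF1 overlap RAI1 on the other strand. SCAP, the escort of the precursors, rose in ATG7KO (0.45 ± 0.09, adjusted p = 0.00012) and in the RB1CC1KO-labelled line (0.57 ± 0.09, adjusted p = 5.03e-06). In WT it stood at 0.18 ± 0.09 with overlapping libraries (adjusted p = 0.0831).

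INSIG1 (ENSG00000186480, chromosome 7), the sterol-bound retention factor and itself a known SREBP target, had 14.3, 14.9 and 12.5 CPM after EBSS and 25.7, 29.4 and 28.1 CPM in full medium in ATG7KO. It had 23.3, 21.3 and 18.1 CPM after EBSS and 35.5, 39.6 and 32.3 CPM in full medium in the RB1CC1KO-labelled line. WT had 16.2, 15.6 and 13.8 CPM after EBSS and 27.1, 29.1 and 24.2 CPM in full medium. All EBSS libraries lay below all full-medium libraries of their line, with log2 fold changes of -0.97 ± 0.11, -0.77 ± 0.10 and -0.82 ± 0.10 (adjusted p = 1.83e-09, 1.41e-08 and 1.91e-08).

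INSIG2 (ENSG00000125629, chromosome 2), the second retention factor, did not follow INSIG1. It had 15.1, 12.3 and 11.9 CPM after EBSS and 13.1, 13.8 and 10.1 CPM in full medium in ATG7KO. It had 13.7, 14.2 and 12.2 CPM after EBSS and 13.8, 15.7 and 15 CPM in full medium in the RB1CC1KO-labelled line. WT had 15.3, 16.3 and 12.3 CPM after EBSS and 10.8, 12.1 and 10.0 CPM in full medium. It rose in WT, without overlap (0.41 ± 0.13, adjusted p = 0.00575), and was not called in ATG7KO (0.10 ± 0.13, adjusted p = 0.498) or in the RB1CC1KO-labelled line (-0.14 ± 0.12, adjusted p = 0.314). With upper-quartile scaling the WT call was lost (adjusted p = 0.0734).

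Of the 5 genes of transport, uptake and export, 3 rose and 1 fell in each line. MYLIP (ENSG00000007944, chromosome 6), the ligase also known as IDOL, had 8.92, 10.9 and 10.6 CPM after EBSS and 23.4, 24.3 and 21.8 CPM in full medium in ATG7KO. It had 12.4, 11.6 and 11.7 CPM after EBSS and 24.8, 21.7 and 25.9 CPM in full medium in the RB1CC1KO-labelled line. WT had 7.80, 8.26 and 9.23 CPM after EBSS and 23.0, 22.2 and 22.8 CPM in full medium. The media were far apart in every line, with log2 fold changes of -1.21 ± 0.11, -1.02 ± 0.10 and -1.42 ± 0.11 (adjusted p = 8.02e-12, 3.51e-11 and 5.85e-14).

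ABCA1 (ENSG00000165029, chromosome 9), like MYLIP a known LXR target, moved in the opposite direction. It had 31.9, 34.6 and 36.3 CPM after EBSS and 20.6, 26.7 and 23.1 CPM in full medium in ATG7KO. It had 26.5, 32.5 and 30.7 CPM after EBSS and 21.2, 25.5 and 21.4 CPM in full medium in the RB1CC1KO-labelled line. WT had 23.3, 23.8 and 30.6 CPM after EBSS and 16.8, 18.7 and 19.7 CPM in full medium. The media did not overlap, and the log2 fold changes were 0.53 ± 0.11, 0.40 ± 0.11 and 0.49 ± 0.11 (adjusted p = 8.82e-05, 0.00141 and 0.000275).

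The lysosomal pair rose together. NPC1 (ENSG00000141458, chromosome 18), the membrane transporter of the pair, had 67.5, 71.0 and 66.0 CPM after EBSS and 38.2, 43.0 and 42.8 CPM in full medium in ATG7KO. It had 56.7, 60.8 and 62.3 CPM after EBSS and 43.2, 42.6 and 40.3 CPM in full medium in the RB1CC1KO-labelled line. WT had 75.5, 77.3 and 78.2 CPM after EBSS and 42.4, 44.6 and 46.7 CPM in full medium. Its log2 fold changes were 0.73 ± 0.07, 0.51 ± 0.07 and 0.79 ± 0.07, with no overlap (adjusted p = 4.98e-11, 5.36e-08 and 3.18e-12).

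NPC2 (ENSG00000119655, chromosome 14), the soluble partner that hands cholesterol to NPC1, had 44.2, 50.9 and 49.2 CPM after EBSS and 33.3, 28.1 and 32.8 CPM in full medium in ATG7KO. It had 47.5, 45.0 and 45.6 CPM after EBSS and 31.1, 26.3 and 31.7 CPM in full medium in the RB1CC1KO-labelled line. WT had 44.5, 53.9 and 56.4 CPM after EBSS and 28.7, 26.9 and 27.4 CPM in full medium. The log2 fold changes were 0.61 ± 0.09, 0.63 ± 0.09 and 0.90 ± 0.09, again without overlap (adjusted p = 5.41e-07, 1.4e-07 and 1.11e-10). Exons of NPC1 overlap RMC1 and those of NPC2 overlap ISCA2, both on the other strand. STARD4, a soluble sterol carrier, stood at -0.04 ± 0.09, 0.04 ± 0.09 and 0.01 ± 0.09 and was called in no line.

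**Figure D3:**
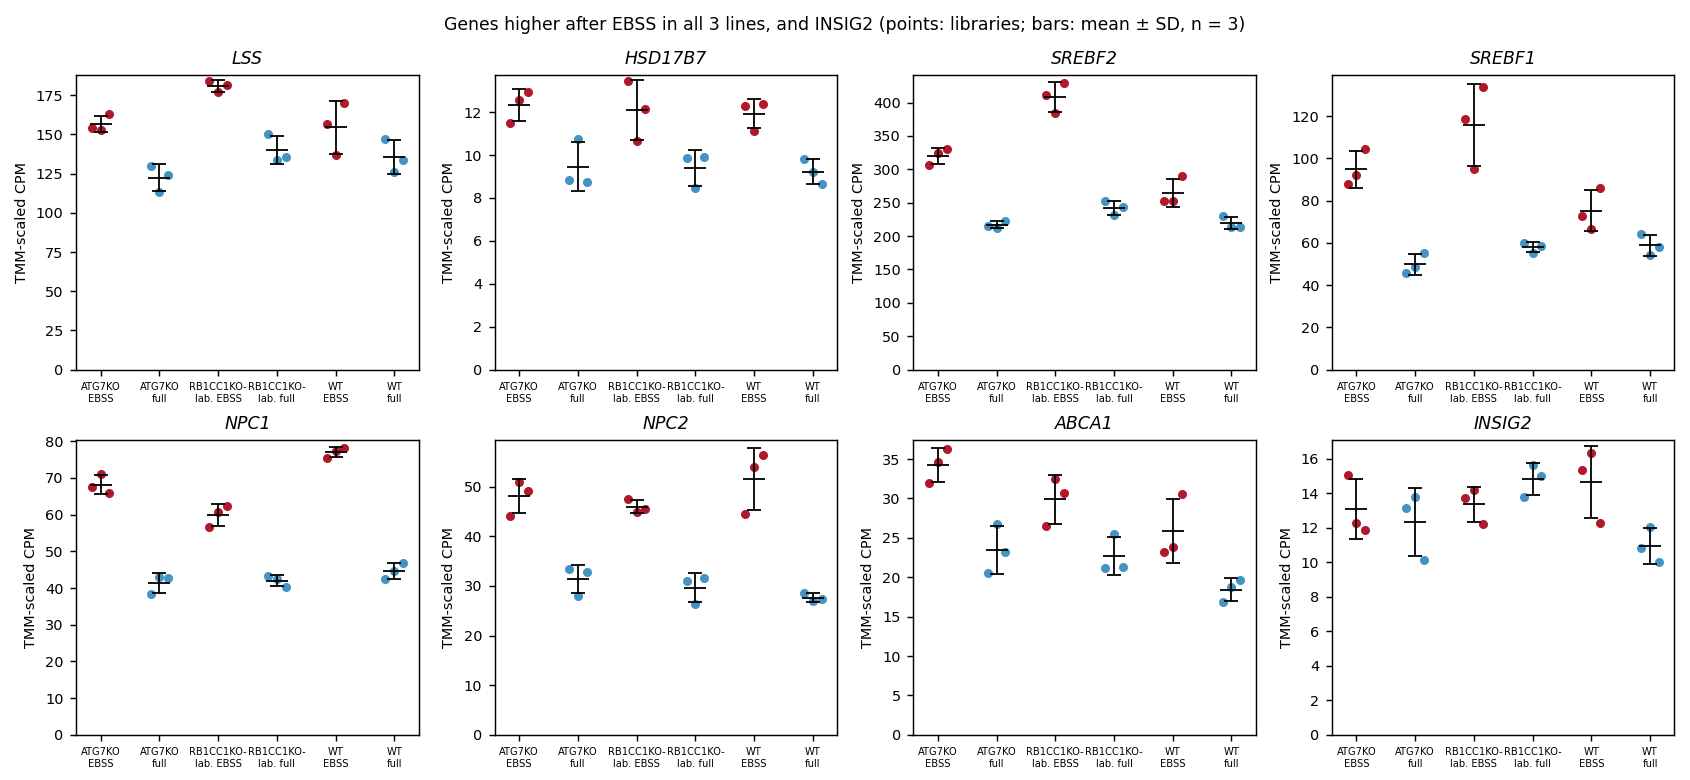
TMM-scaled CPM of the 7 members that were higher after EBSS in all 3 lines, and of INSIG2; each point is 1 library, bars are mean ± SD over 3 libraries, red is EBSS and blue is full medium, and axes start at 0. SREBF2 stands at 385 to 429.6 CPM after EBSS in the RB1CC1KO-labelled line, at 307 to 330.4 CPM in ATG7KO and at 252 to 289 CPM in WT.

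The sizes above depend on the scaling of the libraries. Upper-quartile scaling put the median of all genes at -0.17 after EBSS in each line, in place of -0.01 to -0.03, and the share of calls that were higher at 37.2%, 37.0% and 37.4% in ATG7KO, the RB1CC1KO-labelled line and WT, in place of 51.3%, 48.9% and 50.3%. Under that scaling 13 members fell in ATG7KO and 3 rose in WT, and no called member changed sign.

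Genes around the pathway gave a wider view, from 5 further lists. Their counts of calls stand beside 32.3% of all genes higher and 30.6% lower after EBSS in ATG7KO. In the RB1CC1KO-labelled line the shares of all genes were 31.9% and 33.3%, and in WT 32.4% and 32.1%. No list was tested as a set. Of 18 measured genes of sterol esters, lipoprotein receptors and sterol transfer, 11 rose and 4 fell in ATG7KO, 11 rose and 3 fell in the RB1CC1KO-labelled line, and 12 rose and 4 fell in WT. Their median log2 fold changes were 0.32, 0.35 and 0.37. The lipoprotein receptor VLDLR rose on the log2 scale by 2.35 ± 0.08 in ATG7KO, 2.4 ± 0.08 in the RB1CC1KO-labelled line and 2.78 ± 0.08 in WT. GRAMD1B, which moves cholesterol from the plasma membrane to the endoplasmic reticulum, rose by 1.83 ± 0.08, 1.84 ± 0.07 and 1.78 ± 0.08 in the same lines. The apolipoprotein E receptor LRP8 stood at -0.88 ± 0.10, -0.77 ± 0.09 and -1.04 ± 0.09, called in each. SCARB1, the high-density lipoprotein receptor, fell in ATG7KO (-0.30 ± 0.07) and in WT (-0.54 ± 0.07) and was not called in the RB1CC1KO-labelled line (-0.13 ± 0.07, adjusted p = 0.102).

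Of 13 genes of SREBP processing and sterol-regulated protein turnover, 4 rose and 3 fell in ATG7KO, 4 rose and 5 fell in the RB1CC1KO-labelled line, and 7 rose and 4 fell in WT, with medians of 0.01, -0.02 and 0.16. The ubiquitin ligase SYVN1 rose by 0.74 ± 0.08, 0.78 ± 0.08 and 0.65 ± 0.08. ERLIN2, a membrane scaffold of protein degradation at the endoplasmic reticulum, fell in each line (-0.86 ± 0.08, -0.87 ± 0.08 and -0.82 ± 0.08), as did TMEM97, known to limit NPC1 levels (-0.19 ± 0.06, -0.38 ± 0.06 and -0.30 ± 0.06). Of 7 measured LXR and RXR receptors and other LXR targets, 1 rose and 3 fell in ATG7KO, 1 rose and 4 fell in the RB1CC1KO-labelled line, and 1 rose and 3 fell in WT. The gene that rose was RXRB, at 1.05 ± 0.09, 0.68 ± 0.09 and 0.92 ± 0.09. NR1H2, which encodes LXR-beta, fell (-0.41 ± 0.13, -0.93 ± 0.13 and -0.47 ± 0.12).

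Of 14 genes of the isoprenoid branch that leaves at farnesyl diphosphate, 5 rose and 5 fell in ATG7KO, 5 rose and 7 fell in the RB1CC1KO-labelled line, and 4 rose and 5 fell in WT. FNTA, the shared subunit of the prenyltransferases, rose by 1.02 ± 0.08, 1.08 ± 0.08 and 1.13 ± 0.08, and GGPS1, which makes geranylgeranyl diphosphate, by 0.70 ± 0.08, 0.52 ± 0.08 and 0.85 ± 0.08. DHDDS, of dolichol synthesis, fell (-0.64 ± 0.09, -0.43 ± 0.08 and -0.60 ± 0.09), as did PGGT1B, a subunit of a protein prenyltransferase (-0.47 ± 0.10, -0.55 ± 0.09 and -0.47 ± 0.09). Of 10 fatty acid and phospholipid targets of SREBP, 5 rose and 2 fell in ATG7KO, 3 rose and 1 fell in the RB1CC1KO-labelled line, and 4 rose and 4 fell in WT. MID1IP1, an activator of acetyl-CoA carboxylase, rose by 1.17 ± 0.09, 1.25 ± 0.09 and 1.03 ± 0.09, and the phosphatidate phosphatase LPIN1 by 0.62 ± 0.06, 0.75 ± 0.06 and 0.50 ± 0.06. The elongase ELOVL6 fell (-1.14 ± 0.07, -1.10 ± 0.07 and -1.0 ± 0.07). SCD, the desaturase, fell in ATG7KO (-0.20 ± 0.05) and in WT (-0.42 ± 0.05) and was not called in the RB1CC1KO-labelled line (-0.11 ± 0.05, adjusted p = 0.0836).

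The lines were then compared with WT in full medium, which asks what differed before starvation. Both comparisons use the same WT libraries. In ATG7KO 1 member was higher and 3 were lower, beside 4.47% of all genes higher and 6.07% lower, and the median member stood at -0.03. Lower were the decarboxylase MVD with 24.3 ± 1.85 CPM in ATG7KO and 33.9 ± 3.21 CPM in WT (-0.49 ± 0.10, adjusted p = 0.000443), the kinase MVK (-0.33 ± 0.10, adjusted p = 0.0273) and the reductase DHCR7 (-0.23 ± 0.07, adjusted p = 0.0289). ABCA1 was higher, with 23.5 ± 3.07 CPM in ATG7KO and 18.4 ± 1.46 CPM in WT (0.35 ± 0.11, adjusted p = 0.0377). The libraries of these 4 genes did not overlap between the lines. The MVD call held without each single library. The call of MVK ended without any ATG7KO replicate (adjusted p = 0.0619, 0.0615 and 0.0986) and without WT replicate 1 or 3 (0.0986 and 0.0616), that of DHCR7 without WT replicate 1 or 3 (0.183 and 0.0732) or ATG7KO replicate 1 or 2 (0.0802 and 0.128), and that of ABCA1 without WT replicate 1 or 2 (0.184 and 0.0765) or ATG7KO replicate 2 or 3 (0.266 and 0.0694).

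The RB1CC1KO-labelled line, in which RB1CC1 RNA was not lower, had 7 members higher and 0 lower than WT in full medium, beside 8.3% of all genes higher and 8.87% lower. At an unadjusted p under 0.05 the counts were 11 higher and 0 lower, and DESeq2 called 7 and 0. The median member stood at 0.11, beside 0.02 over all genes. HMGCS1 averaged 219 ± 18 CPM in the RB1CC1KO-labelled line and 161 ± 11.2 CPM in WT (0.45 ± 0.07, adjusted p = 3.35e-06). INSIG1 averaged 35.8 ± 3.63 CPM in the RB1CC1KO-labelled line and 26.8 ± 2.46 CPM in WT (0.41 ± 0.10, adjusted p = 0.00198). SQLE averaged 119 ± 5.83 CPM in the RB1CC1KO-labelled line and 99.2 ± 6.42 CPM in WT (0.27 ± 0.06, adjusted p = 0.00231). In these 3 genes all RB1CC1KO-labelled libraries lay above all WT libraries, and the calls held without each single library. The other 4 were INSIG2 (0.42 ± 0.13), MVD (0.28 ± 0.09), ACAT2 (0.25 ± 0.07) and FDFT1 (0.21 ± 0.06), with adjusted p = 0.0163, 0.0325, 0.0152 and 0.00767. ACAT2 had 25249 reads and overlaps TCP1, which had 230442, on the other strand.

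Those 4 calls depended on single libraries, all of full medium unless named. INSIG2 lost its call without WT replicate 1 or 3 (adjusted p = 0.0565 and 0.107) or RB1CC1KO-labelled replicate 2 or 3 (0.0948 and 0.0686), and FDFT1 without RB1CC1KO-labelled replicate 2 or 3 (0.0631 and 0.077). ACAT2 lost it without WT replicate 1 (0.0854) or RB1CC1KO-labelled replicate 2 or 3 (0.126 and 0.0915). MVD lost it without WT replicate 2 or 3 (0.0832 and 0.215), RB1CC1KO-labelled replicate 1 or 3 (0.0885 and 0.189), WT EBSS replicate 1 (0.0532) or ATG7KO EBSS replicate 2 (0.0526), and with upper-quartile scaling (0.0573).

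After EBSS more members differed between the RB1CC1KO-labelled line and WT, with RB1CC1 RNA again not lower in that line (264 ± 14.8 CPM, against 222 ± 10.8 CPM in WT). Of the 29 members 16 were higher and 1 was lower, beside 14.8% of all genes higher, 16.9% lower and 31.6% in either direction, and the median member stood at 0.23, beside 0.00 over all genes. All 4 genes of squalene and lanosterol were higher, as were 5 of 7 in the mevalonate arm, 4 of 5 in the SREBP system, 2 of 8 after lanosterol and 1 of 5 in transport. SREBF2 averaged 408 ± 22.6 CPM in the RB1CC1KO-labelled line and 265 ± 21.2 CPM in WT (0.62 ± 0.06, adjusted p = 3.78e-10). HMGCS1 averaged 151 ± 11.8 CPM in the RB1CC1KO-labelled line and 95.9 ± 3.80 CPM in WT (0.66 ± 0.07, adjusted p = 1.44e-09). MVD averaged 46.6 ± 5.33 CPM in the RB1CC1KO-labelled line and 30.0 ± 1.85 CPM in WT (0.63 ± 0.09, adjusted p = 1.92e-06). The RB1CC1KO-labelled libraries lay above the WT libraries in each of these genes. SREBF1 (0.62 ± 0.11), INSIG1 (0.47 ± 0.11), MYLIP (0.49 ± 0.11), MVK (0.42 ± 0.10), DHCR7 (0.41 ± 0.07), FDFT1 (0.40 ± 0.06), SQLE (0.34 ± 0.06) and FDPS (0.24 ± 0.06) were higher too, with adjusted p between 1.18e-06 and 0.0023. NPC1 was the lower one, with 59.9 ± 2.92 CPM in the RB1CC1KO-labelled line and 77.0 ± 1.34 CPM in WT (-0.36 ± 0.07, adjusted p = 6.12e-05).

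The remaining 5 calls of that comparison were weaker. CYP51A1 (0.80 ± 0.26, adjusted p = 0.0202) lost its call without WT EBSS replicate 2 (adjusted p = 0.0837) or RB1CC1KO-labelled EBSS replicate 1 or 3 (0.069 and 0.0788). LSS (0.23 ± 0.07, adjusted p = 0.0113) lost it without WT EBSS replicate 2, where it stood at 0.15 (adjusted p = 0.139). NSDHL (0.23 ± 0.08, adjusted p = 0.0221) lost it without WT EBSS replicate 1 or 2 (0.0569 and 0.0621) or RB1CC1KO-labelled EBSS replicate 1, where it stood at 0.15 (0.177). The fit of only the groups compared did not call NSDHL either (0.0757). SCAP (0.26 ± 0.09, adjusted p = 0.0298), whose libraries overlapped, lost it without WT EBSS replicate 1 or 2 (0.0628 and 0.152), RB1CC1KO-labelled EBSS replicate 1 or 3 (0.0813 and 0.115), and with upper-quartile scaling (0.0576). IDI1 (0.21 ± 0.08, adjusted p = 0.0491), whose libraries overlapped, lost it without any 1 of 10 libraries, with an adjusted p of 0.375 and a value of 0.10 without WT EBSS replicate 3. The other 9 were all ATG7KO and RB1CC1KO-labelled full-medium replicates, ATG7KO EBSS replicate 2, and RB1CC1KO-labelled EBSS replicates 1 and 2 (adjusted p = 0.0506 to 0.14). The IDI1 call was also lost with upper-quartile scaling (0.0574) and in the fit of only the groups compared (0.102). Of the 10 fatty acid and phospholipid targets of SREBP, 5 were higher and 0 lower in the same comparison, and of the 13 SREBP processing genes 0 were higher and 2 lower. The shares of all genes in that comparison were 14.8% higher and 16.9% lower.

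ATG7KO and WT differed less after EBSS, with 3 members higher and 0 lower, beside 6.07% of all genes higher and 7.17% lower. At an unadjusted p under 0.05 the counts were 6 higher and 4 lower, and DESeq2 called 3 and 1. DESeq2 called SREBF1 higher (0.32, adjusted p = 0.0287) in place of HMGCS1, and LBR lower (-0.16, 0.0386). SREBF1 was also called higher by edgeR without the filter (0.000791), with the replicate block (0.00185) and in the fit of only the groups compared (0.0118). The values that follow are of the main fit. SREBF2 averaged 321 ± 12.1 CPM in ATG7KO and 265 ± 21.2 CPM in WT, without overlap (0.27 ± 0.06, adjusted p = 0.00156), and kept its call without each single library. ABCA1 averaged 34.3 ± 2.20 CPM in ATG7KO and 25.9 ± 4.06 CPM in WT (0.39 ± 0.11, adjusted p = 0.0145), and HMGCS1 averaged 111 ± 2.71 CPM in ATG7KO and 95.9 ± 3.80 CPM in WT (0.20 ± 0.07, adjusted p = 0.0498). ABCA1 lost its call without WT EBSS replicate 1 or 2 (adjusted p = 0.113 and 0.0812) or ATG7KO EBSS replicate 2 or 3 (0.0839 and 0.0504). HMGCS1 lost it with DESeq2 (0.0712), RLE scaling (0.0649), no filter (0.0614) and the fit of only the groups compared (0.0545). The HMGCS1 call was also lost without any 1 of 13 libraries (0.0529 to 0.163). These were all EBSS replicates of ATG7KO and WT, all ATG7KO full-medium replicates, WT full-medium replicate 3, RB1CC1KO-labelled full-medium replicates 2 and 3 and RB1CC1KO-labelled EBSS replicate 1.

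**Figure D4:**
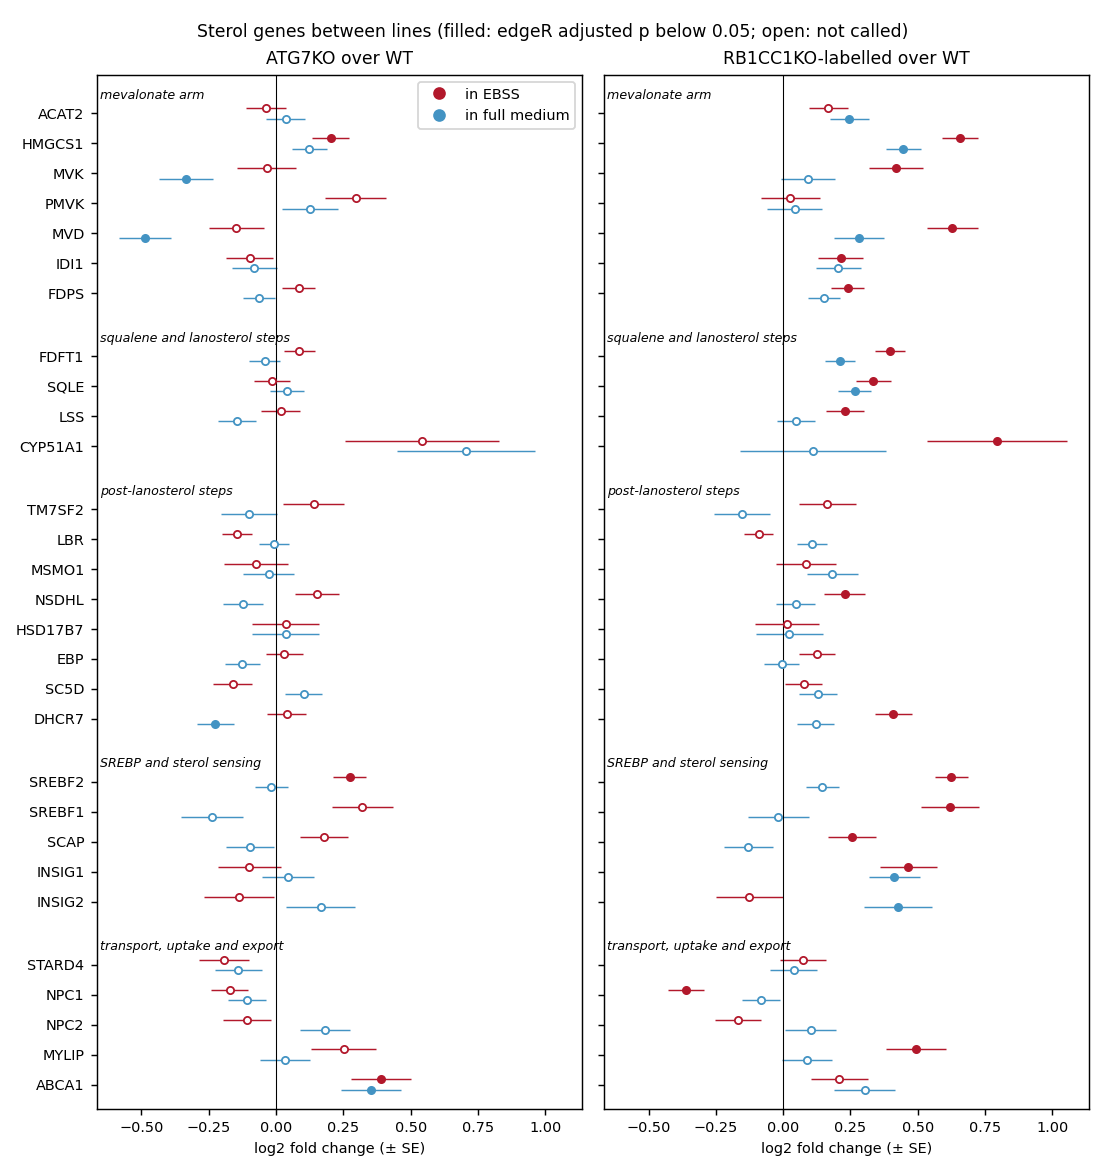
Log2 fold change of each member in ATG7KO over WT (left) and in the RB1CC1KO-labelled line over WT (right), ± standard error, after EBSS (red) and in full medium (blue); filled points were called by edgeR at an adjusted p below 0.05. In the right panel 16 members are filled to the right of 0 after EBSS, and 7 in full medium.

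Whether a line responded to EBSS differently from WT was tested as a difference of the log2 changes. Both tests use the same WT libraries. In the RB1CC1KO-labelled line, whose RB1CC1 RNA was not lower in either medium, the response of 2 members was higher and that of 1 was lower, beside 2.68% of all genes higher, 5.47% lower and 8.16% in either direction. In either direction the share of members called was near that of all genes. At an unadjusted p under 0.05 the counts were 10 higher and 4 lower, and DESeq2 called 4 and 0. DESeq2 added SCAP (0.40, adjusted p = 0.029) and DHCR7 (0.31, 0.0351), both also called higher with RLE scaling (0.0466 and 0.0422) and the replicate block (0.0158 and 0.0348). The block also called NPC1 lower (-0.28, 0.0493). SREBF2 rose more in the RB1CC1KO-labelled line, at 0.75 ± 0.06, than in WT, at 0.27 ± 0.06 (difference 0.48 ± 0.09, adjusted p = 0.000302). SREBF1 rose more as well, by 0.99 ± 0.11 in the RB1CC1KO-labelled line and 0.36 ± 0.11 in WT (difference 0.64 ± 0.16, adjusted p = 0.0141). That call was lost without WT full-medium replicate 1 (adjusted p = 0.0506). INSIG2 had a difference of -0.55 ± 0.18 (adjusted p = 0.0467), with -0.14 ± 0.12 in the RB1CC1KO-labelled line and 0.41 ± 0.13 in WT. This call was lost with DESeq2 (0.063) and without any 1 of 11 libraries (0.0538 to 0.152), which were all but WT full-medium replicate 2, WT EBSS replicate 3, ATG7KO full-medium replicates 2 and 3, ATG7KO EBSS replicate 3, RB1CC1KO-labelled full-medium replicate 1 and RB1CC1KO-labelled EBSS replicate 2.

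In ATG7KO, whose ATG7 RNA was itself higher after EBSS than in full medium, the response of 0 members differed from WT in either direction in the main edgeR fit, beside 0.369% of all genes higher and 0.685% lower. At an unadjusted p under 0.05 the counts were 6 higher and 2 lower, and DESeq2 called 1 higher, SREBF1 (adjusted p = 0.0264), and 0 lower. SREBF1 was also called higher by edgeR without the filter (0.000174), with the replicate block (0.00245) and in the fit of only the groups compared (0.0289). The block called SREBF2 higher as well (0.0438). The values that follow are of the main fit. The nearest were SREBF2, with 0.56 ± 0.06 in ATG7KO and 0.27 ± 0.06 in WT (difference 0.29 ± 0.09, adjusted p = 0.0926), and SREBF1, with 0.92 ± 0.11 in ATG7KO and 0.36 ± 0.11 in WT (difference 0.56 ± 0.16, adjusted p = 0.1). MSMO1, which fell most, had differences of -0.05 ± 0.15 in ATG7KO and -0.10 ± 0.15 in the RB1CC1KO-labelled line (adjusted p = 0.931 and 0.759), so the errors of these differences were larger than the differences themselves.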

How the data were processed

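The authors deposited whole-number read counts per Ensembl gene for each of 18 libraries, unnormalised, made from polyadenylated RNA with a directional kit and 75 bp single-end reads per the labels. GRCh37 (hg19) and the tools HTSeq 0.6.1p1, STAR 2.4.2a, Picard, DESeq2 and edgeR appear in the submitters' processing notes, with strand setting and annotation release not given in the sources used here, so reads of overlapping genes cannot be assigned with certainty. The 5 HTSeq summary lines entered neither library sizes nor tests (no feature 9.39 to 15.1% and ambiguous 2.08 to 2.42% of all counted reads). Gene symbols and chromosomes are from GENCODE 29 on GRCh38 (52526 of 63677 identifiers matched), and promoters from RefSeq GRCh38.p14.

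The members, gene lists and tests were chosen with earlier results of these data known. In edgeR 4.0.16 (R 4.3.3, limma 3.58.1) genes were filtered with filterByExpr, which left 15179, scaled by TMM, and fitted with the quasi-likelihood test in 1 model of 6 group means. It gave 9 comparisons: EBSS over full medium in 3 lines, ATG7KO and RB1CC1KO-labelled over WT in both media, and 2 differences of response. A gene was called at an adjusted p (Benjamini-Hochberg over all genes tested) below 0.05. Each p-value sets a change against the spread between libraries of the same group. That spread is estimated jointly over all 6 groups, with information shared across genes, so libraries of groups not compared also affect it. The standard error is the size of the log2 fold change divided by the square root of F, so errors of different comparisons need not combine. Levels are TMM-scaled CPM, or CPM per kilobase of merged exons. Members called with the same sign after EBSS in all 3 lines, or in a response difference, are given per library; for the other lists the 2 largest and 2 smallest changes among genes called in WT are named, except for a few that are not reported here. The common biological coefficient of variation was 6.72%. The fit was tested on simulated data. The 24 alternatives were upper-quartile and RLE scaling, DESeq2 1.42.0, no filter, a fit of only the groups compared, a replicate block and leaving out each library. A stricter threshold of 0.01 was applied to the counts of calls.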

Additional observations from a re-analysis of the deposited data

Results flagged for a closer look

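The response to EBSS differed from that of WT in 3 members in the RB1CC1KO-labelled line, by the test of the difference itself in edgeR, beside 8.16% of all genes called in either direction. The share of members called was near that of all genes. The difference of the log2 changes was 0.48 for SREBF2 (0.75 in the RB1CC1KO-labelled line and 0.27 in WT), 0.64 for SREBF1 (0.99 in the RB1CC1KO-labelled line and 0.36 in WT) and -0.55 for INSIG2 (-0.14 in the RB1CC1KO-labelled line and 0.41 in WT). RB1CC1 RNA was not lower in the libraries of that line. The INSIG2 call was lost with upper-quartile scaling (adjusted p = 0.0505), RLE (0.0558), DESeq2 (0.063), the fit of only the groups compared (0.0611) and without any 1 of 11 libraries (0.0538 to 0.152), and the SREBF1 call without WT full-medium replicate 1 (0.0506). In ATG7KO the main fit called 0 members for this difference, but some alternatives called SREBF1 higher there too. These were DESeq2 (0.55, adjusted p = 0.0264), no filter (0.55, 0.000174), the replicate block (0.58, 0.00245) and the fit of only the groups compared (0.54, 0.0289). The block also called SREBF2 higher in ATG7KO (0.30, 0.0438).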

How the results depend on the processing

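Of 92 member calls over the 9 comparisons, 63 were kept under all 24 alternatives and 0 changed sign. Upper-quartile scaling ended 14 calls and added 8, RLE ended 4 and added 2, and DESeq2 ended 3 and added 5. Low read counts limit CYP51A1, as its pseudogene copies may, and the design limits the line comparisons, since each genotype is 1 line.

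Counts of members called that moved by over 1.5 times follow. With upper-quartile scaling 13 were lower after EBSS in ATG7KO (8 with TMM), 3 were higher after EBSS in WT (9), and 0 had a lower response in the RB1CC1KO-labelled line than in WT (1). For that last comparison, RLE gave 4 higher and 0 lower, DESeq2 gave 4 and 0, and the fit of only the groups compared gave 0 lower, in place of 2 and 1. Without the filter, and in the fit of only the groups compared, 2 members were higher in ATG7KO than WT in full medium (1 in the report) and 1 had a higher response in ATG7KO (0), as 1 did with DESeq2. DESeq2 called 1 member lower in ATG7KO than WT after EBSS (0). Without the filter 281 of all genes differed in response between ATG7KO and WT (160). At an adjusted p below 0.01 the members called were 0 higher and 1 lower in ATG7KO and 4 higher in the RB1CC1KO-labelled line in full medium, 1 higher in ATG7KO after EBSS, and 1 higher and 0 lower for the response of the RB1CC1KO-labelled line. Over all genes that threshold left 944 and 1500 in full medium, 1174 and 3201 after EBSS, and 50 and 556 for the responses, in ATG7KO and the RB1CC1KO-labelled line in turn.

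Leaving out 1 library gave these ranges. In full medium, 0 to 2 members were higher and 1 to 3 lower in ATG7KO than WT, and 3 to 9 higher in the RB1CC1KO-labelled line. After EBSS, 1 to 4 were higher and 0 to 1 lower in ATG7KO, with 1235 to 2081 of all genes called (2010 with all libraries; lowest without ATG7KO EBSS replicate 2), and 1 to 2 lower in the RB1CC1KO-labelled line. For the response, 0 to 2 were higher in ATG7KO, with 71 to 275 of all genes called, and 1 to 5 higher and 0 to 1 lower in the RB1CC1KO-labelled line, with 788 to 1588 of all genes called (1238).

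Replicate numbers are shared between groups, and whether they pair the samples was not settled. The deviations of 45 same-numbered pairs correlated at -0.13 to 0.22 (median 0.007), with 5 above 0.1. Those of 90 differently numbered pairs correlated at -0.19 to 0.19 (median -0.016), with 8 above 0.1. Of 18 libraries, 8 correlated best with a library of their own number. A fit with the replicate block ended 0 member calls and added 11. With it 2 members had a higher response in ATG7KO than WT and 293 of all genes differed, and 4 had a higher and 2 a lower response in the RB1CC1KO-labelled line.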
